A study of Mus musculus with 6 samples.

Results

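The genes described here are 33 receptor genes for glutamate and GABA, taken by name and placed by their GENCODE mm10 records, out of 21938 protein-coding genes. They comprise 16 ionotropic glutamate receptor genes (3 AMPA, 7 NMDA, 5 kainate and 1 delta), 7 metabotropic glutamate receptor genes, 8 GABA-A receptor subunit genes and 2 GABA-B receptor genes. Histone H3 trimethylated at lysine 9 (H3K9me3) was profiled by ChIP-seq in neural stem cells (NSCs) of the mouse, cultured from the cerebral cortices of fetal brains. NSCs were transduced with a lentivirus carrying either a scramble shRNA as control (shCTR) or an shRNA that targets PHF8 (shPHF8), with 2 ChIP libraries in each group, and both groups therefore shared the infection, the puromycin selection and the culture in EGF and FGF. The shCTR libraries carry the genotype label CTR, the cells were kept ex vivo as a self-renewing progenitor culture, and whether replicates came from separate cultures is not given in the sources used here. Each ChIP library has 1 list of peak positions without height or score, so the knockdown of PHF8 and the markers of the cell type could not be checked in these lists.

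H3K9me3 is a mark of constitutive heterochromatin that also lies over silenced genes and repeats. PHF8 is a Jumonji histone demethylase of the KDM7 family that binds promoters carrying H3K4me3 and acts mainly on H3K9me2, H3K9me1 and H4K20me1. Glutamate opens AMPA, NMDA and kainate channels and activates metabotropic receptors, which signal through G proteins, whereas GABA opens the chloride channel of the GABA-A receptor and activates the GABA-B receptor. Most of these receptors belong to differentiated neurons, which NSCs are not.

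The lists of shCTR replicates 1 and 2 held 53307 and 54108 peaks over 157 and 160 Mb, and those of shPHF8 replicates 1 and 2 held 44316 and 55555 peaks over 219 and 197 Mb. The shPHF8 lists thus covered 1.32 times as many bases as the shCTR lists, and the median peak width was 2400 bp for shCTR replicates 1 and 2 and 4200 and 2800 bp for shPHF8 replicates 1 and 2. The lists do not give sequencing depth, and the part that the wider peaks of shPHF8 have in a covered length was not tested. In the text, a gene or promoter is called higher when both shPHF8 libraries covered more of it than both shCTR libraries, and lower in the opposite case. An exact two-sided permutation test on 2 libraries against 2 cannot give a p under 0.333, so each count of calls is set beside the share of all protein-coding genes called in the same way.

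As classes, by summed covered bases before any scaling, the ionotropic glutamate receptor genes were covered more in shPHF8 and the GABA-A genes less. Peaks covered 240 and 264 kb of the 16 ionotropic glutamate receptor genes in shCTR and 384 and 350 kb in shPHF8, a ratio of means of 1.45. The 8 GABA-A genes had 14.0 and 16.1 kb covered in shCTR and 6.26 and 4.60 kb in shPHF8, a ratio of 0.361. The libraries of the conditions did not overlap in either class. The 7 metabotropic glutamate receptor genes had 153 and 150 kb in shCTR against 152 and 139 kb in shPHF8 (ratio 0.961), and the 2 GABA-B genes 58.4 and 47.3 kb against 68.2 and 55.6 kb (ratio 1.17), and in both classes the libraries overlapped. With each library scaled to the same total covered length, the ratio was 1.11 for the ionotropic glutamate class and 0.273 for GABA-A, still without overlap, whereas with every library cut to its widest peaks at an equal covered length the ionotropic ratio was 1.04 with overlapping libraries and the GABA-A ratio 0.255. The scaled ionotropic difference rested largely on Gria1. The scaled class totals were 281 and 303 kb in shCTR and 321 and 325 kb in shPHF8, and Gria1 alone was higher by 32661 bp. On the same scale the NMDA genes had a ratio of 0.889 and the kainate genes 1.03 with overlapping libraries. With peaks of at least 3000 bp alone, the GABA-A libraries overlapped at a ratio of 0.819. The metabotropic class was lower in shPHF8 without overlap under both of the other settings, at a ratio of 0.731 after scaling and 0.635 with an equal covered length, and the GABA-B class at the latter alone, with a ratio of 0.801. The metabotropic total was dominated by Grm5, with ratios of 0.741 unscaled, 0.564 scaled and 0.522 at an equal covered length. The 2 group II genes had 2.31, 1.75 and 1.19 in the same order, and the 4 group III genes 1.24, 0.940 and 0.824.

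In the gene body, from the first to the last annotated base, 13 of 33 receptor genes (39.4%) were higher in shPHF8, against 13.0% of all protein-coding genes, and 5 (15.2%) were lower, against 6.08%. Without shPHF8 replicate 1, the lower bodies numbered 9, against 11.1% of all genes. Receptor genes are long, with a median of 209 kb against 17.4 kb for all protein-coding genes, and long genes were called more often. Among genes of 200 to 500 kb, 6 of 11 receptor genes were higher, against 40.0% of all genes of that length, and 2 were lower, against 12.4%. Above 500 kb, 2 of 6 were higher, against 45.7%, and 2 were lower, against 13.5%. Between 50 and 200 kb, 2 of 8 were higher, against 25.6%, and 1 was lower, against 11.7%. The 3 of 8 called higher under 50 kb, against 8.37%, were Grin2d, Grin3b and Gabbr1, and none of the 8 was lower, against 4.35%. Within the length classes, then, the counts of receptor genes lay within a few genes of the genome's share.

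**Figure D1:**
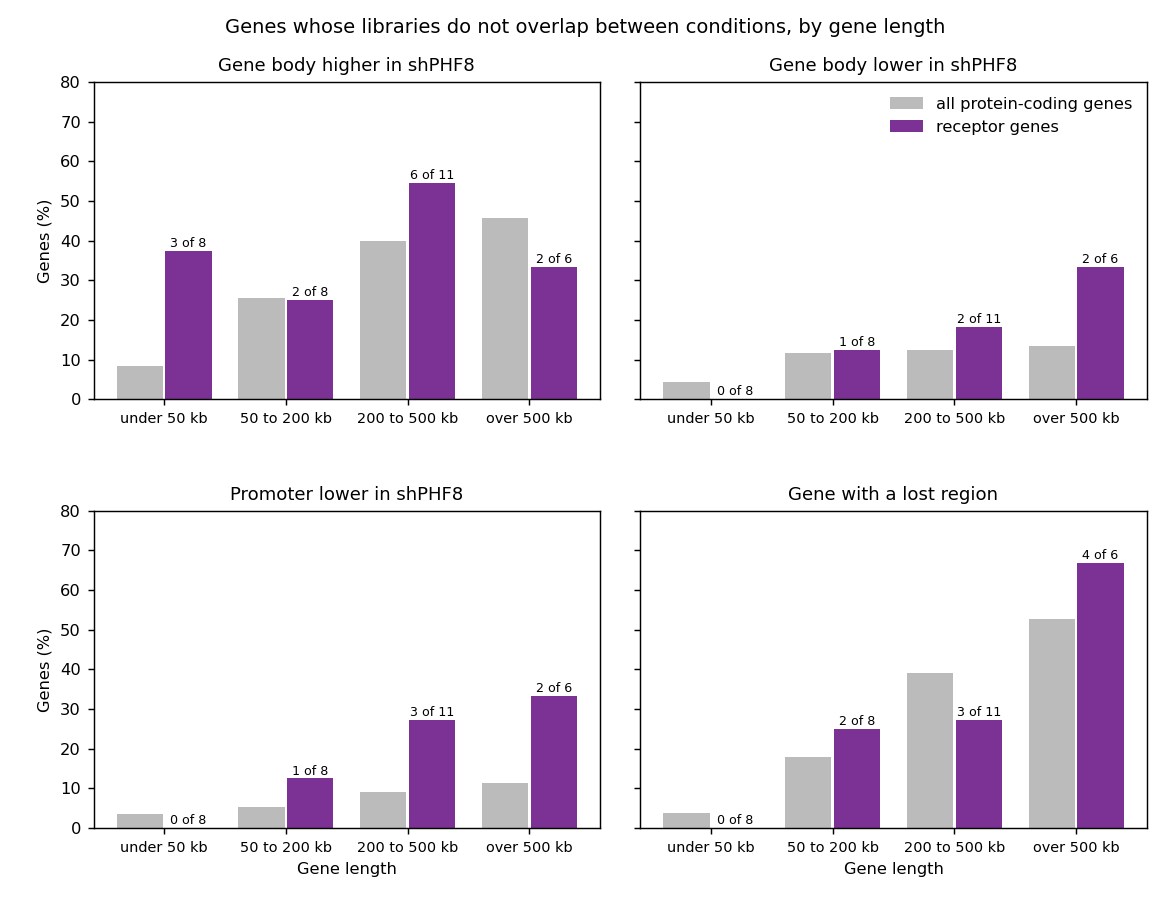
Share of genes (%, y axis) called in each of 4 ways in each gene length class (x axis), for all protein-coding genes in grey and the receptor genes in purple, with the counts printed over the purple bars. Of receptor genes of 200 to 500 kb, 6 of 11 had a higher gene body against 40.0% of all genes of that length, and 3 of 11 had a lower promoter window against 8.98%.

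Promoters were called less often than gene bodies over all protein-coding genes. In the promoter window, 3 kb on each side of the start site, 6 of 33 receptor genes (18.2%) were lower in shPHF8, against 4.09% of all protein-coding genes, and 2 (6.06%) were higher, against 4.05%. The lower promoters were those of Grin2a, Grik3, Grid1, Grm8, Gabra4 and Gabrb1, and the higher ones those of Grin2d, in 1 of 8 receptor genes under 50 kb (4.21% of all genes), and Grm4, in 1 of 8 from 50 to 200 kb (3.24%). No receptor gene had a higher promoter in the classes of 200 to 500 kb (5.34% of all genes) and above 500 kb (1.74%). Without shCTR replicate 2, the higher promoters numbered 4, against 6.19% of all genes. The Gabra4 and Gabrb1 windows are not separate observations, because both genes start within the same lost region. By length, the lower promoters numbered 0 of 8 receptor genes under 50 kb (3.46% of all genes), 1 of 8 from 50 to 200 kb (5.39%), 3 of 11 from 200 to 500 kb (8.98%) and 2 of 6 above 500 kb (11.3%). A peak of at least 1 library lay in the promoter window of 17 receptor genes (51.5%), against 28.0% of all protein-coding genes, and 16 had none. From the shortest class to the longest, these were 3 of 8, 3 of 8, 7 of 11 and 4 of 6. Of all genes in these classes, 26.6, 31.3, 37.9 and 38.3% had such a peak. In 5 of the 6 lower promoters both shCTR libraries had a peak and neither shPHF8 library had one.

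Regions were also formed by merging the peaks of the 4 libraries, and a region was called lost when both shCTR libraries and no shPHF8 library had a peak in it, and gained in the opposite case. A lost region lay in 9 of 33 receptor genes or their promoters (27.3%), against 8.08% of all protein-coding genes, and a gained region in 5 (15.2%), against 4.59%. A lost region was found in 16 receptor genes without shCTR replicate 1, shCTR replicate 2 or shPHF8 replicate 2, against 16.1, 14.6 and 13.4% of all genes. A gained region was found in 9 without either shCTR library (8.07 and 8.13% of all genes), 12 without shPHF8 replicate 1 (12.8%) and 10 without shPHF8 replicate 2 (8.03%), since fewer libraries then had to meet the rule. Within the length classes, lost regions were found in 0 of 8, 2 of 8, 3 of 11 and 4 of 6 receptor genes from the shortest to the longest class, against 3.73, 18.0, 39.1 and 52.6% of all genes. Gained regions were found in 0 of 8, 1 of 8, 3 of 11 and 1 of 6, against 2.09, 8.81, 26.4 and 42.6%. The 12 distinct lost regions had a median width of 2300 bp and 4 of them lay in promoter windows. The 8 distinct gained regions had a median width of 4300 bp, none lay in a promoter window, and the closest one began 31614 bp from its gene's start. Another 89 regions in 20 receptor genes had a peak in all 4 libraries.

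The 4 lost regions in promoter windows held more CpG than the lost and gained regions elsewhere in receptor genes. Only the region of Gabra4 and Gabrb1 contained start sites, whereas those of Grm8, Grid1 and Grin2a began 778, 893 and 2360 bp downstream. CpG is the dinucleotide that is clustered in the promoters of many vertebrate genes. The 4 regions held 2.71 (Grid1), 3.13 (Gabra4 and Gabrb1), 3.63 (Grin2a) and 4.00 (Grm8) CpG per 100 bp, whereas the 8 other lost regions of receptor genes had a median of 0.571 and the 8 gained regions a median of 1.04. High CpG was not particular to lost regions, since the 13 other receptor regions in promoter windows ranged from 0.727 to 8.90 with a median of 2.06, among them Grik3 with 3.95 and Gabra5 with 3.92. Over the genome, the 475 lost regions in promoter windows had a median of 1.58 CpG per 100 bp and the 3104 outside them 0.900. As examples, 3 windows of 200 bp from lost regions in promoter windows are printed with 2 from gained regions deep in genes, from RefSeq GRCm38.p6 (mm10), plus strand, 5′ to 3′, with each CpG in capitals. Each is the window of its region with the most CpG that held no annotated UTR base, so its CpG count was fixed by that choice and is a description only. The lost Gabra4 and Gabrb1 window and the gained Grik4 window both held 9, so the printed windows do not show the difference between regions. Windows chosen likewise but not printed held 12 in the lost Grm8 region. In other gained regions they held 4 in Gria1, 5 and 5 in Grik4 and 2 in Grin3a. The median over 48700 windows of 200 bp in all lost regions was 2 CpG.
Gabra4 and Gabrb1, lost, chr5:71657601-71657800, 9 CpG: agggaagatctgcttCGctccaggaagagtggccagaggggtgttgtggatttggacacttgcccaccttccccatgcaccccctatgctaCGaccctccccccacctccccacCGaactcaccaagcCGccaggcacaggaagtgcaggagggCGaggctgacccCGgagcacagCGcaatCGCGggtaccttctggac
Grin2a, lost, chr16:9992201-9992400, 15 CpG, coding throughout: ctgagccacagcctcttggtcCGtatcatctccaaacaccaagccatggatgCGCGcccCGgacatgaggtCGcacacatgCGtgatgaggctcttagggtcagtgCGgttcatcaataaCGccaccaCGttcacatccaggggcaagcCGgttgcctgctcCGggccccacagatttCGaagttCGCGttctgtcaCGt
Grid1, lost, chr14:34822801-34823000, 13 CpG, intron: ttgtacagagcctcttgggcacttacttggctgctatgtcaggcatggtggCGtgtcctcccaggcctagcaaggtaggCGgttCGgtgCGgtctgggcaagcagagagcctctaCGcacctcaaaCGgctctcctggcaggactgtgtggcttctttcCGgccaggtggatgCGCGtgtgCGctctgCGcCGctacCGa
Gria1, gained, chr11:57309801-57310000, 7 CpG, end of an exon and intron: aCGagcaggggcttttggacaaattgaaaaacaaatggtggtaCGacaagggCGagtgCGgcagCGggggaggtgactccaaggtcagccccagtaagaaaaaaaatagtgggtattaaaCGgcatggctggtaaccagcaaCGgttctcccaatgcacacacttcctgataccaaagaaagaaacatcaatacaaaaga
Grik4, gained, chr9:42870801-42871000, 9 CpG, intron: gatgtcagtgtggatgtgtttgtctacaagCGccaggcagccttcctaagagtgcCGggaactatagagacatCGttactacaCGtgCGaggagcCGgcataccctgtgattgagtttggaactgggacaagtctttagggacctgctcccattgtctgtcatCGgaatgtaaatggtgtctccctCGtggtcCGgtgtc

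**Figure D2:**
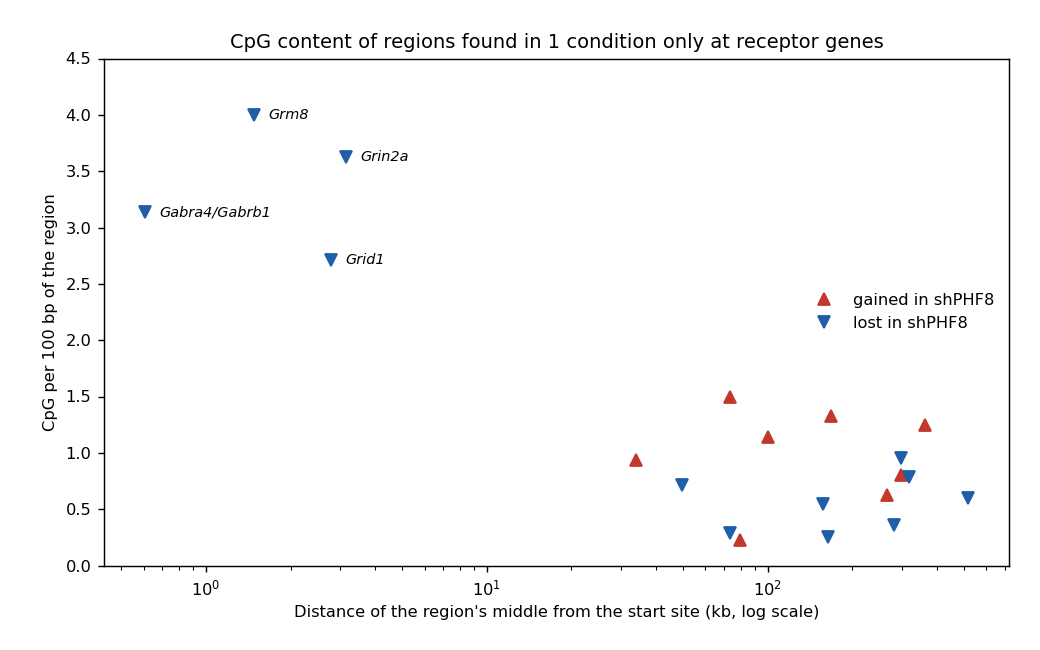
CpG per 100 bp (y axis) against the distance of a region's middle from the start site of its gene (kb, log scale) for the 12 lost (blue, pointing down) and 8 gained regions (red, pointing up) of receptor genes. The 4 lost regions in promoter windows lie between 2.71 and 4.00 CpG per 100 bp, and every other region plotted is at 1.50 or below.

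Among AMPA receptor genes, whose channels carry most fast excitatory transmission, covered length was 52.2 and 61.8 kb in shCTR and 127 and 105 kb in shPHF8, a ratio of 2.04 that was 1.55 after scaling to the same total. Gria1, which encodes the GluA1 subunit (chr11:57011387-57330244, plus strand), had 23200 and 30200 bp covered in shCTR and 72844 and 71200 bp in shPHF8, or 7.28, 9.47, 22.8 and 22.3% of the gene. Both shPHF8 libraries stood well above both shCTR libraries, with a difference of 45322 bp and a ratio of 2.70. On log2(covered bases + 200), limma gave Gria1 a change of 1.44 (SE 0.17), which did not pass the test (adjusted p = 0.0988). No adjusted p among the 8145 genes tested was smaller, but the value was tied and does not rank Gria1 first. Grik4 had the same adjusted p, with a smaller unadjusted limma p (0.0014 against 0.00299 for Gria1). None of the 8145 genes passed in either direction (0.00% higher and 0.00% lower), while 1086 were higher and 436 lower at an unadjusted p under 0.05. With 1 library left out, 203 and 209 genes passed as higher without shPHF8 replicates 1 and 2, and 220 and 209 as lower without shCTR replicates 1 and 2.

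The added length in Gria1 was spread along the gene. It held 9 and 11 peaks in shCTR and 15 and 19 in shPHF8. Of 24 regions, 6 had a peak in all libraries and 3 of these were wider in both shPHF8 libraries. A gained intronic region at chr11:57043001-57047600 had 4600 and 2200 bp in shPHF8, and a second at chr11:57307001-57310600, which reaches into an exon, had 3400 and 2000 bp. Summed over whole regions, including what reaches past the end of the gene, the 2 gained regions added 6.10 kb to the mean difference, regions in all libraries 11.0 kb, and the 16 regions with any other pattern 29.6 kb. The largest part thus came from regions that were neither gained nor shared by all libraries, and the Gria1 promoter window had no peak in any library.

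Gria4, for the GluA4 subunit, had 27600 and 28400 bp covered in shCTR and 50600 and 33800 bp in shPHF8, a call that was lost on scaling to the same total. Gria2 encodes GluA2, the subunit that keeps calcium out of AMPA channels. It had 1400, 3200, 3800 and 0 bp in shCTR replicates 1 and 2 and shPHF8 replicates 1 and 2, and the conditions overlapped. The intronic Gria2 region chr3:80752801-80754200 was lost, with 1400 and 800 bp in shCTR.

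**Figure D3:**
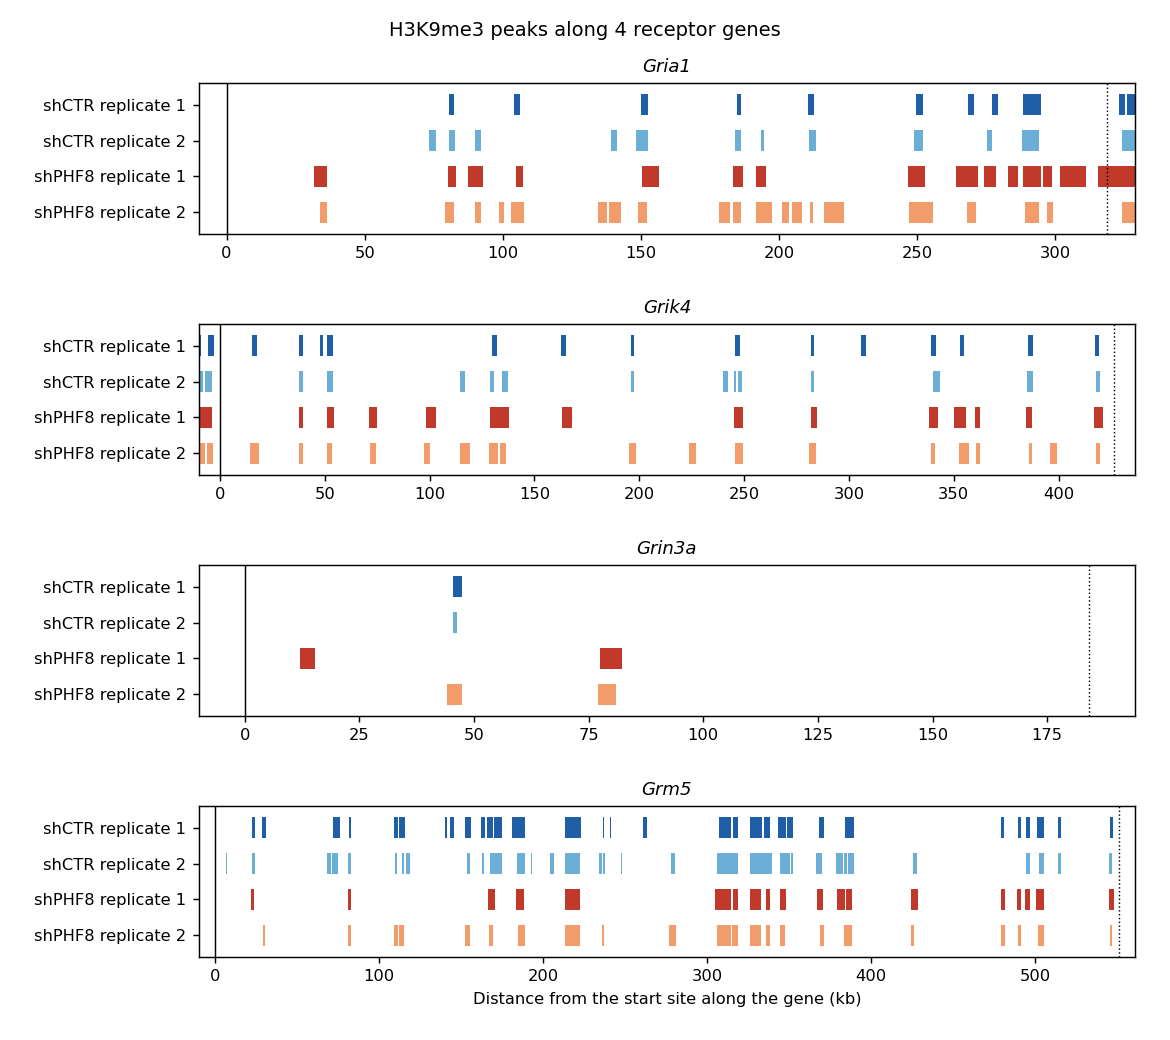
Peaks in the 4 libraries (rows, shCTR in blue and shPHF8 in red and orange) along Gria1, Grik4, Grin3a and Grm5, against the distance from the start site (kb), with a solid line at the start and a dotted line at the end of each gene. Gria1 held 9 and 11 peaks in shCTR and 15 and 19 in shPHF8, whereas Grm5 held 31 and 32 in shCTR and 19 and 22 in shPHF8.

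NMDA receptor genes encode the voltage-dependent, calcium-permeable glutamate channels. Their summed length was 77.2 and 79.0 kb in shCTR and 89.4 and 92.6 kb in shPHF8 (ratio 1.16), and this direction reversed to a ratio of 0.889 with every library scaled to the same total and to 0.770 with an equal covered length. Grin3a, which encodes a glycine-binding subunit, had 2000 and 1000 bp covered in shCTR and 8200 and 7000 bp in shPHF8. The limma change was 2.26 (SE 0.40, adjusted p = 0.129). The Grin3a difference came mostly from a gained intronic region, chr4:49763401-49768600, with 4800 and 3800 bp in shPHF8, of which 73.3% was repeat sequence. Grin3a was higher under all 11 alternatives tried, as were Gria1 and Grik4. Leaving out a library or blocking by replicate number cannot undo a call made on all 4 libraries, so only the other alternatives could have changed it.

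Grin3b, the second glycine-binding subunit gene, is short, and a peak shared by all libraries covered 990 and 590 bp of it in shCTR and 3190 and 1790 bp in shPHF8. The region of this peak, chr10:79974001-79980000, ran past the end of the gene and also overlaps Tmem259. Grin2b, which encodes the GluN2B subunit typical of the developing forebrain, had 39800 and 40200 bp in shCTR and 45000 and 47400 bp in shPHF8. The Grin2b difference of 6200 bp, a ratio of 1.16 against 1.32 for the whole lists, reversed to -5468 bp on scaling. Its promoter window had 290 bp covered in shPHF8 replicate 2 and 0 in the other libraries.

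Grin2d, for the GluN2D subunit, had 10200 and 9400 bp covered in shCTR and 13400 and 11578 bp in shPHF8, and its promoter window 1400 and 1778 bp against 2978 and 4578 bp. The promoter difference came from 1 region present in all libraries, chr7:45876801-45882400, which reached 1577 bp into the gene and also overlaps Kdelr1, its neighbour. The peak in it was 1400 and 2400 bp wide in shCTR and 3600 and 5600 bp in shPHF8. The gene body call of Grin2d reversed to -368 bp on scaling, whereas the promoter call held.

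Grin2a, for the GluN2A subunit of maturing synapses, had 16400 and 14600 bp of its body covered in shCTR and 15200 and 14000 bp in shPHF8, which overlapped. Its lost region at chr16:9991601-9993200 lay 2360 to 3959 bp into the gene and held 1546 exonic bases. Peaks of 1600 and 1400 bp in shCTR reached 641 bp into the promoter window in both libraries, and no peak was found there in shPHF8. The Grin2a promoter call rests on the inner edge of the window, and it was lost with a window of 1 kb. Grin2c had 7800 and 5032 bp covered in shCTR and 4400 and 5200 bp in shPHF8, and its promoter window had 1958 bp in shCTR replicate 1 and 0 in the others.

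Kainate receptor genes, for channels that act both at synapses and on transmitter release, had 93.7 and 99.9 kb covered in shCTR and 132 and 130 kb in shPHF8 (ratio 1.36), and the libraries overlapped after scaling (ratio 1.03). Grik4, for the high-affinity subunit GluK4 (chr9:42518135-42944493, minus strand), had 30000 and 27400 bp in shCTR and 55000 and 55200 bp in shPHF8, or 7.04, 6.43, 12.9 and 12.9% of the gene. Both shPHF8 values were close to each other and above both shCTR values. The limma change was 0.94 (SE 0.08, adjusted p = 0.0988). Grik4 had 3 gained intronic regions, the most of any receptor gene, at chr9:42581801-42584200, chr9:42841601-42847200 and chr9:42869401-42873400. Their peaks were 2400 and 2000 bp, 4600 and 2800 bp, and 4000 and 3200 bp wide in shPHF8 replicates 1 and 2. Of the mean difference summed over whole Grik4 regions, gained regions made up 9.50 kb, the 9 regions in all libraries 10.9 kb and the remaining 10 regions 8 kb. The Grik4 promoter window had 93 bp covered in shCTR replicate 1 and 0 in the other libraries.

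Grik3, for GluK3, differed in opposite directions in its body and at its start. Its body (chr4:125490700-125714173, plus strand) had 49501 and 55901 bp covered in shCTR and 65600 and 65800 bp in shPHF8, and its promoter window 5701 and 5701 bp against 2301 and 2701 bp. In shCTR the peaks of region chr4:125485001-125493400 ran across the start site, with widths of 6800 and 8000 bp, whereas those of shPHF8 were 5000 and 3200 bp wide and stopped before it. The RefSeq promoter of Grik3 held 50 CpG in 300 bp, a count reached by 0.855% of promoters in that table, which matched 25 of the 33 receptor genes. High counts were not particular to lower promoters, since Gabbr2 held 46 and Grik4 42 without a promoter call. The 4 matched lower promoters held 12 to 50 (median 29), and the 20 that overlapped held 2 to 46 (median 15). A link between CpG and the calls was not tested. The promoter call of Grik3 held under all 12 alternatives, whereas the body difference of 12999 bp reversed to -2980 bp on scaling. Among the 12, leaving out a library or blocking by replicate number could not have undone the call.

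Grik1, for GluK1, was the only ionotropic glutamate receptor gene with a lower body, with 5200 and 7800 bp covered in shCTR and 2400 and 0 bp in shPHF8. It held 2 lost intronic regions, chr16:87970801-87973600 with 1400 and 2200 bp in shCTR and chr16:87992001-87994400 with 2400 and 1800 bp. Its promoter window had 1400 bp in shCTR replicate 1 and 0 elsewhere. Grik2, for GluK2, had 7200, 8000, 7400 and 8400 bp in the 4 libraries, which overlapped, and a lost intronic region at chr10:49630801-49633200 with 2200 and 1800 bp in shCTR.

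Grid1 encodes GluD1, a delta receptor that works as a synaptic adhesion partner rather than as a typical glutamate channel. It had 17400 and 23600 bp of its body covered in shCTR and 35000 and 22000 bp in shPHF8, which overlapped, but it held both a lost and a gained region. The lost region, chr14:34821001-34824800, lay 893 to 4692 bp downstream of the start with peaks of 3400 and 3800 bp in shCTR, so that 1908 and 2108 bp of the promoter window were covered in shCTR and 0 in both shPHF8 libraries. The gained region, chr14:35083001-35089400, lay in an intron 262893 bp from the start, with peaks of 6400 and 3000 bp in shPHF8.

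**Figure D4:**
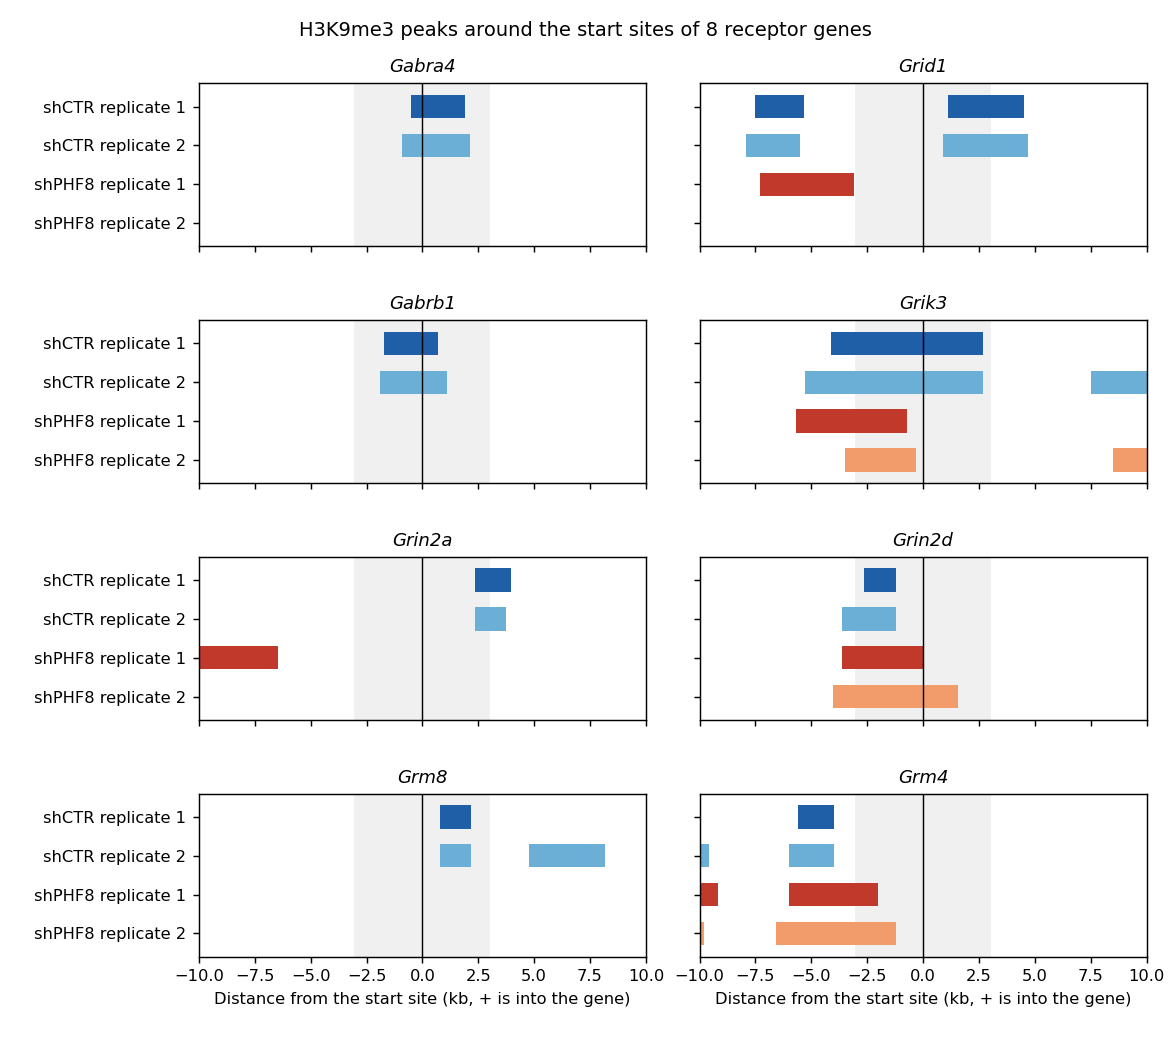
Peaks in the 4 libraries within 10 kb of the start sites of the 6 receptor genes with lower and the 2 with higher promoter coverage, against the distance from the start (kb, positive into the gene), with the promoter window of 3 kb on each side in grey. The shCTR peaks at Gabra4, Gabrb1, Grin2a, Grm8 and Grid1 have no shPHF8 counterpart in the window, the Grik3 peaks of shPHF8 end before the start, and those of Grin2d and Grm4 reach farther into the window than in shCTR.

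Of the 7 metabotropic glutamate receptor genes, 4 bodies were higher, against 13.0% of all genes. In the length classes of these 4, the share of all genes was 25.6% (50 to 200 kb), 40.0% (200 to 500 kb) and 45.7% (above 500 kb). The body of 1, Grm5, was lower, against 6.08% of all genes and 13.5% of those above 500 kb. Grm5 (chr7:87584168-88134907, plus strand) encodes mGlu5, a Gq-coupled receptor that is also found in neural progenitors. It had more covered bases than any other receptor gene, 105800 and 107600 bp in shCTR and 81400 and 76800 bp in shPHF8, or 19.2, 19.5, 14.8 and 13.9% of the gene. Both shPHF8 libraries were below both shCTR libraries by 27600 bp on average, the largest negative difference of the list, although the shPHF8 lists covered more of the genome. The limma change was -0.43 (SE 0.06, adjusted p = 0.111).

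Grm5 peaks numbered 31 and 32 in shCTR and 19 and 22 in shPHF8. Of its 36 regions, 11 had a peak in all libraries, of which 4 were narrower in both shPHF8 libraries and 0 were wider. It held 3 lost intronic regions, chr7:87655401-87660200 with 4000 and 3600 bp in shCTR, chr7:87746401-87748400 with 2000 and 1200 bp, and chr7:88097801-88099800 with 2000 and 1800 bp. Grm5 was lower under all 11 alternatives tried, of which those that leave out a library or block by replicate could not have undone the call.

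The group II genes encode presynaptic receptors that reduce cyclic AMP. Grm3, for mGlu3, had 12800 and 5600 bp covered in shCTR and 25200 and 18200 bp in shPHF8, a ratio of 2.36. Grm2, for mGlu2, had peaks only in the replicate 2 libraries, with 2200 bp in shCTR and 4200 bp in shPHF8, and Grin1, for the obligatory NMDA subunit GluN1, likewise had 8200 bp in shCTR replicate 2, 5600 bp in shPHF8 replicate 2 and 0 in both replicate 1 libraries. Grin1 and Grm2 were singled out after their values were seen.

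Among the group III genes, Grm4, for mGlu4, had 4400 and 5800 bp of its body covered in shCTR and 8600 and 8800 bp in shPHF8. Its promoter window had no peak in shCTR and 1003 and 1803 bp in shPHF8. The peaks belong to 1 region upstream of the gene, chr17:27522601-27528000, which was present in all libraries with 1600 and 2000 bp in shCTR and 4000 and 5400 bp in shPHF8, so that a wider peak, not an added one, entered the window. The Grm4 body call reversed to -200 bp with an equal covered length and to -400 bp with wide peaks alone.

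Grm8, for mGlu8, had 14600 and 15000 bp of its body covered in shCTR and 15800 bp in both shPHF8 libraries, a difference of 1000 bp that reversed to -3185 bp on scaling. At its start the order was the opposite. The region chr6:28133001-28134400, 778 to 2177 bp from the start and annotated as exonic throughout, had a peak of 1400 bp in both shCTR libraries and none in shPHF8. Grm7, for mGlu7, had 5020 and 5220 bp in shCTR and 9820 and 7220 bp in shPHF8, while its promoter window had 2600, 4581, 3200 and 3000 bp and overlapped. Grm6, for the mGlu6 receptor of retinal bipolar cells, had the highest share of its length covered in shCTR, 66.5 and 53.6%, against 70.4 and 51.6% in shPHF8, and its promoter window had 6001, 6001, 6001 and 4201 bp in shCTR replicates 1 and 2 and shPHF8 replicates 1 and 2. The widest region of Grm6, chr11:50862201-50875800, ran past the end of the gene and also overlaps Zfp454. After Grm6, Grin2c had the next highest mean share in shCTR (35.5%), followed by Grik3 (23.6%).

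No GABA-A subunit gene was higher, 3 of 8 were lower, 1 overlapped and 4 had no peak in any library, against 13.0% higher, 6.08% lower and 52.8% without a peak among all protein-coding genes. Among genes of 50 to 200 kb, the length of 4 of the 8, 17.4% of all genes had no peak and 11.7% were lower. Gabra4 and Gabrb1, for the α4 and β1 subunits, lie head to head on chromosome 5, and both start sites lay inside the lost region chr5:71656201-71659200. Peaks of 2400 and 3000 bp covered it in shCTR, and neither shPHF8 library had a peak there. In Gabra4 this was the only region, so that its body had 1908 and 2108 bp covered in shCTR and 0 in both shPHF8 libraries (limma change -3.46, SE 0.49, adjusted p = 0.106). The limma change of a gene with no covered base in 1 condition depends on the 200 bp added before taking logs.

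Gabrb1 had 6288 and 9288 bp of its body covered in shCTR and 3200 and 4600 bp in shPHF8, and lost a second, intronic region, chr5:71937601-71939800, with 1800 and 2200 bp in shCTR. Gabrg3, for the γ3 subunit, had 4400 and 2200 bp in shCTR and 0 in both shPHF8 libraries. The Gabrg3 peaks of the shCTR libraries did not coincide, so none of its 4 regions met the rule for a lost region, and its promoter window was covered by 2200 bp in shCTR replicate 2 alone. Gabra5, for the α5 subunit of extrasynaptic receptors, had 1400, 2459, 3059 and 0 bp in its body and 1400, 4200, 4742 and 0 bp in its promoter window in shCTR replicates 1 and 2 and shPHF8 replicates 1 and 2. Gabra2, Gabra6, Gabrb2 and Gabrg1 had no peak in any library, and the nearest peaks lay 63.6, 19.8, 12.0 and 3.18 kb away.

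The GABA-A totals were small, at 0.775 and 0.889% of the summed gene length in shCTR and 0.347 and 0.255% in shPHF8, against 5.28 and 5.80% and 8.43 and 7.68% for the ionotropic glutamate receptor genes. The lower total therefore rested on few peaks. With peaks of at least 3000 bp alone, the body calls of Gabra4, Gabrb1 and Gabrg3 and the promoter calls of Gabra4 and Gabrb1 were not made, whereas all 5 held with scaling and with an equal covered length.

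GABA-B receptors are obligate dimers of the products of Gabbr1 and Gabbr2 and act through Gi proteins. Gabbr1 had 0 and 1200 bp covered in shCTR and 2600 and 1400 bp in shPHF8, all in 1 region, and the gap between the conditions was a single 200-bp step of the peak caller. Gabbr2 had 58400 and 46073 bp in shCTR and 65600 and 54200 bp in shPHF8, which overlapped. Its promoter window had 273, 2473, 873 and 1073 bp, and an intronic region at chr4:46822201-46825600 was gained, with 3400 and 1200 bp in shPHF8.

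**Figure D5:**
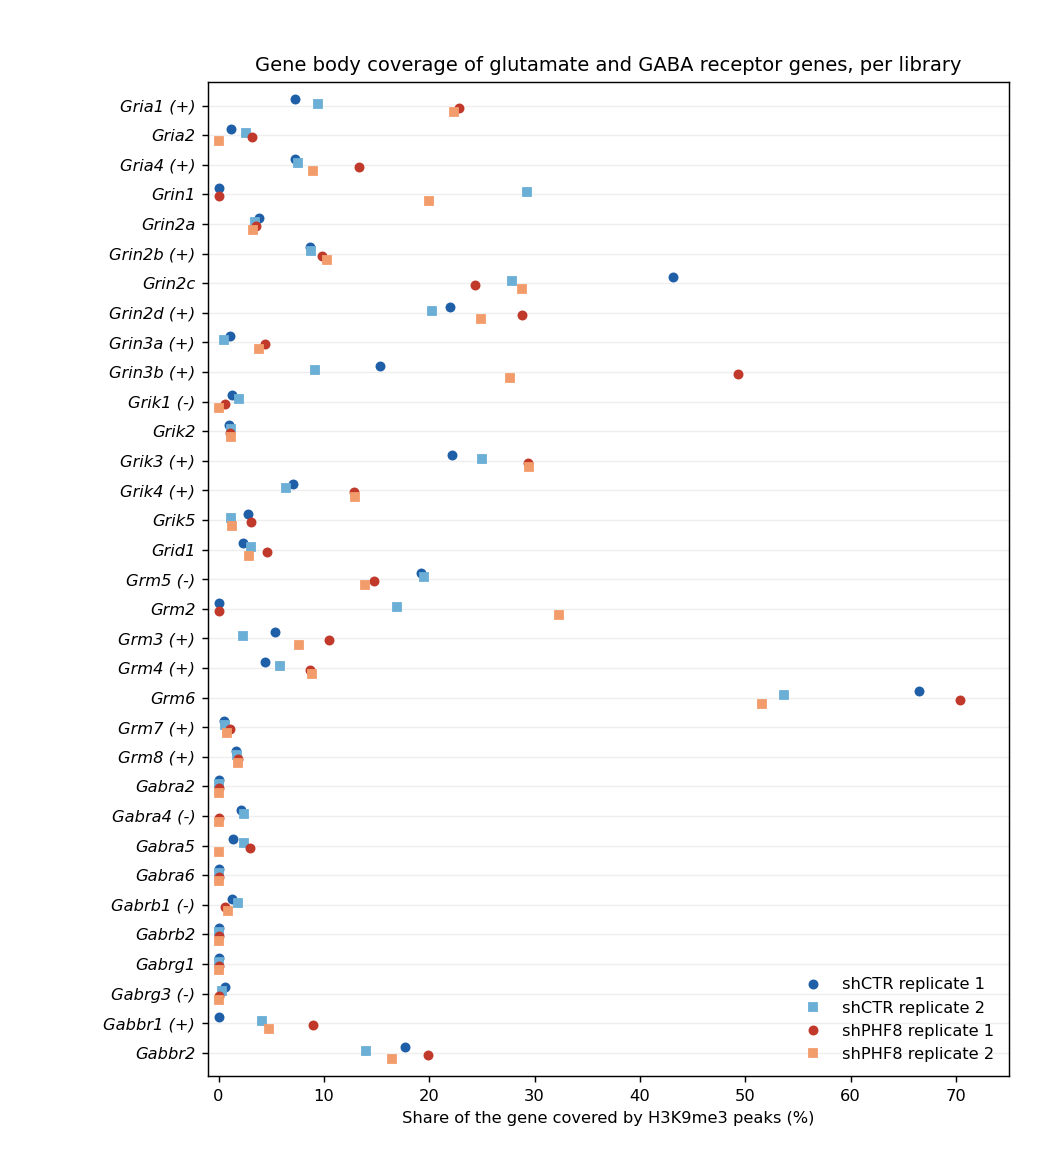
Share of each receptor gene covered by H3K9me3 peaks (%, x axis), with 1 point per library, shCTR in blue and shPHF8 in red and orange, circles for replicate 1 and squares for replicate 2. A plus or minus after the name marks the 13 genes called higher and the 5 called lower, among them Gria1 with 7.28 and 9.47% in shCTR and 22.8 and 22.3% in shPHF8.

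Across all receptor genes limma tested 29, of which none passed in either direction, while 6 were higher and 3 lower at an unadjusted p under 0.05. The median log2 change was 0.20 over the 29 receptor genes and 0.20 over all 8145 genes tested. Without either shCTR library, limma called 2 receptor genes lower, and without either shPHF8 library 0. Scaling to the same total covered length shifted the median of all genes to -0.17. On that scale 7 of the 13 higher and all 5 lower gene bodies kept their calls, as did all 6 lower and both higher promoters. With an equal covered length, 4 of the 13 higher bodies, all 5 lower bodies, all 6 lower promoters and neither higher promoter kept theirs.

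Another 42 genes for transport, synthesis, scaffolding and auxiliary subunits of glutamate and GABA signalling were counted in the same way. Of these, 9 bodies (21.4%, against 13.0% of all genes) were higher and 8 (19.0%, against 6.08%) lower, and 2 promoters (4.76%, against 4.05%) were higher and 7 (16.7%, against 4.09%) lower. From 50 to 200 kb, the length class with the most of these genes, 4 of 19 bodies were higher, against 25.6%, 5 were lower, against 11.7%, and 3 promoters were lower, against 5.39%. The lower promoters included that of Slc17a6, the vesicular glutamate transporter VGLUT2, with 4806 and 3806 bp in shCTR and 1206 and 1406 bp in shPHF8. At the scaffold gene Dlg2 (PSD-93), 2072 and 2472 bp of the promoter window were covered in shCTR and 0 in shPHF8. Those of Homer2 (4201 and 4201 against 3327 and 2927 bp), Slc6a11 (641 and 241 against 0 and 0 bp), Grip1 (571 and 571 against 0 and 0 bp) and Cacng4 (157 and 444 against 0 and 0 bp) were lower too. The higher ones were Slc17a7, the transporter VGLUT1, with 2949 and 3749 bp against 3949 bp in both shPHF8 libraries, and Slc1a1, the neuronal glutamate transporter EAAC1, with 0 in shCTR and 2352 and 2552 bp in shPHF8. Lost regions lay in 9 of the 42 genes (21.4%, against 8.08% of all genes, among them Slc1a3, Dlg2, Dlg4, Shank2, Homer2, Grip1, Cacng2 and Cacng8) and gained regions in 4 (9.52%, against 4.59%, Abat, Shank2, Grip1 and Cacng2). From 50 to 200 kb, lost regions lay in 4 of 19 (21.1%), against 18.0% of all genes of that length, and gained regions in 2 (10.5%), against 8.81%.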

How the data were processed

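H3K9me3 ChIP-seq lists of 4 libraries were used, 2 shCTR and 2 shPHF8, and the 2 inputs were not analysed here. Per the labels, fragments were read as single-end 50 bp reads, and the submitters' processing notes name Bowtie2 2.3.5.1, SAMtools 1.9 and deepTools with mm10. The paper's methods name SOAP2 and SICER2, without the window, gap or false discovery rate used for H3K9me3. The deposited lists give positions only, with no score or count, so depth and counting error cannot be read from them, and the study's read totals were not used here. Every width is a multiple of 200 bp and no peaks lie closer than 800 bp. Ends were read as inclusive, and 2 peaks per list, outside chromosomes 1 to 19, X and Y, were left out.

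Covered bases were computed per gene (GENCODE M21) and in 3 kb on each side of the start of the gene record with Python 3.11.15 and numpy 2.4.6, and checked against bedtools 2.31.1. The exact permutation test was run over the 4 libraries. Limma 3.58.1 (R 4.3.3) with trend was fitted to log2(covered bases + 200) of genes with a mean of at least 1000 covered bases, with Benjamini-Hochberg adjustment over all genes and a threshold of 0.05. Region calling, coverage and the limma fit were tested on simulated data. The members and lists were chosen with earlier results of these data known. Values were given for members with a promoter peak, a gained or lost region or a gene body call, the 3 with the highest covered share in shCTR and those without a peak, and for partner genes with a gained or lost region (by name) or a promoter call, except that some partner genes are not reported here by name. Alternatives were each library left out, peaks of at least 3000 bp, the widest peaks to an equal covered length, scaling to the same total, a gap of at least 1000 bp, a replicate block, other windows, a region share of 50%, merging within 5 kb, a pseudocount of 1000 bp and no filter. The main calls and fit did not pair the libraries by replicate number, and whether same-numbered libraries belong together is not given in the sources used here. Where 1 library of a condition remained, the fit assumed that it varied like the others.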

Additional observations from a re-analysis of the deposited data

How the results depend on the processing

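Counts of receptor genes depended on the set of peaks, and the causes were not tested except that leaving out a library leaves fewer libraries to meet the rule. Shares in parentheses are those of all protein-coding genes under the same setting. With the widest peaks to an equal covered length, 4 gene bodies were higher (5.91%) and 11 lower (13.5%), 0 promoters were higher (2.35%), 3 genes held a gained (1.63%) and 16 a lost region (18.9%), and limma called 1 receptor gene higher and 4 lower and, over all genes, 102 higher and 892 lower. With peaks of at least 3000 bp, 2 bodies (1.76%) and 2 promoters (1.36%) were lower, 11 genes held a gained (8.34%) and 2 a lost region (1.67%), and limma called 3 receptor genes higher and, over all genes, 714 higher and 86 lower. Scaled to the same total, 7 bodies were higher (6.98%) and 11 lower (14.1%). Without the 3 kb next to the start, 3 bodies were lower (4.98%). With 1 kb promoters 1 was higher (1.60%), with any annotated transcript start 4 were higher (6.99%), and with upstream sequence only 3 were lower (2.32%). A gained region was found in 10 genes when 50% of the region had to be covered (9.80%) and in 3 with merging within 5 kb (3.15%). Leaving out each library in turn gave 15 to 19 higher (16.9 to 21.4%) and 6 to 9 lower bodies (9.68 to 12.0%), 2 to 4 higher (5.78 to 8.99%) and 6 to 9 lower promoters (5.93 to 8.87%), 9 to 12 genes with a gained (8.03 to 12.8%) and 13 to 16 with a lost region (11.0 to 16.1%), and limma calls of 0 to 209 genes higher and 0 to 220 lower over all genes, with 0 receptor genes higher and 0 to 2 lower.

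The differences in covered bases that reversed were, with an equal covered length, Gria4 (-200 bp), Grin2b (-13600 bp), Grm4 (-200 bp), Grm7 (-2010 bp), Grm8 (-2600 bp) and Gabbr1 (-600 bp), on scaling Grin2b (-5468 bp), Grin2d (-368 bp), Grik3 (-2980 bp) and Grm8 (-3185 bp), and with wide peaks Grm4 (-400 bp). The limma log2 changes that reversed were, with an equal covered length, Gria4 (-0.019), Grin2b (-0.61), Grm4 (-1.84), Grm7 (-2.21) and Grm8 (-0.29), on scaling Grin2b (-0.18), Grin2d (-0.045), Grik3 (-0.072) and Grm8 (-0.29), and with wide peaks Grm4 (-0.16).

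Same-numbered libraries shared only a number (correlation of their deviations -0.01 across 8145 genes, which are not independent replicates). With the replicate number as a block, 16 bodies were higher (15.6%) and 6 lower (7.66%), 2 promoters were higher (5.01%) and 6 lower (5.00%), and limma called 0 genes in each direction. Without a score, a peak missing from a list cannot be told apart from signal just under the caller's threshold.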
